A study of Mus musculus with 4 samples.

Results

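The results concern 39 genes of DNA replication and S phase, the phase of the cell cycle in which the genome is copied. They were chosen by name as genes of these processes, and each of the 39 matched 1 row among the 32285 genes of the count matrices. The counts came from droplet single-cell RNA sequencing of bone marrow of 6 female Tppp3CreER LSLTdTomato mice, which the labels give as 6 weeks old. All 6 mice carried both alleles: a Cre recombinase that tamoxifen activates, driven from Tppp3, and a tdTomato reporter that Cre switches on. Of these, 2 mice received tamoxifen and rapamycin at postnatal days 0 and 3 (tamoxifen+rapamycin). Another 2 mice received rapamycin alone at postnatal day 30 (late rapamycin), and 2 mice received tamoxifen alone at postnatal days 0 and 3 (tamoxifen). No mouse was left without a drug. Late rapamycin differed from tamoxifen in both drugs, and from tamoxifen+rapamycin in tamoxifen and in the age at rapamycin. The comparisons with late rapamycin cannot tell these parts from each other. Rapamycin inhibits mTORC1, a kinase complex that drives cell growth. The labels name Lin-Sca+Kit+ cells, Lin-Sca-Kit+ cells and whole bone marrow as the cell material, without saying how these were mixed.

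Each of 2 processing days held 1 mouse of every treatment, marked with its own hashtag antibody, so a replicate number is also a day. The hashtag table and the labels number the mice differently. The hashtag table was followed. It calls the mice of hashtags 3 and 6 controls, and these were taken to be the mice that got rapamycin late. If the label numbers were hashtag numbers, tamoxifen+rapamycin and tamoxifen would be exchanged. The tamoxifen+rapamycin over tamoxifen comparison would then change sign. The comparisons with late rapamycin would trade places, and both would change sign as well. Kept cells per mouse numbered 5681 and 5581 for tamoxifen+rapamycin, 6362 and 5524 for late rapamycin, and 5796 and 5484 for tamoxifen. Their RNA molecules, counted as unique molecular identifiers (UMIs), came to between 22518514 and 36804608 per mouse. The 2 matrices shared 126 cell barcodes, which were kept as separate cells. Late rapamycin replicate 1 stood apart in its makeup, with 1402 neutrophil progenitor cells against 356 to 559 in the other mice and 82 pro-B and pre-B cells against 403 to 787.

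Replication is prepared in G1, when Cdc6 and its partners load the Mcm2 to Mcm7 helicase ring onto origins. This step is called licensing, and Gmnn (geminin) blocks it afterwards. In S phase Cdc45 and the GINS complex switch the helicase on, Pcna clamps the polymerases to the template, ribonucleotide reductase and thymidylate synthase supply nucleotides, and new DNA is packed into chromatin. E2F transcription factors switch on many of these genes at the border of G1 and S. Blood stem cells of adult marrow divide rarely, while their committed progeny divide often and neutrophils stop dividing as they mature.

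Promoters of 4 members are printed here because E2F control of these genes is textbook knowledge and because Rrm2, the member with the highest log2 fold change below, can be set beside 3 members of the licensing group. They come from RefSeq (GRCm38.p6) and run from 250 bases before to 50 bases after the RefSeq gene start. All are written 5′ to 3′ on the strand of the gene. For Cdc6 another gene annotation sets the start at chr11:98907801, ahead of the whole window, so the window lies inside that gene model. Capitals mark matches on either strand to any of 4 E2F words, TTTCCCGC, TTTCGCGC, TTTGCCGC and TTTGGCGC. Mcm3 lies at chr1:20820263-20820562 on the minus strand, Mcm6 at chr1:128359656-128359955 on the minus strand, Cdc6 at chr11:98907901-98908200 on the plus strand and Rrm2 at chr12:24708004-24708303 on the plus strand.
Mcm3: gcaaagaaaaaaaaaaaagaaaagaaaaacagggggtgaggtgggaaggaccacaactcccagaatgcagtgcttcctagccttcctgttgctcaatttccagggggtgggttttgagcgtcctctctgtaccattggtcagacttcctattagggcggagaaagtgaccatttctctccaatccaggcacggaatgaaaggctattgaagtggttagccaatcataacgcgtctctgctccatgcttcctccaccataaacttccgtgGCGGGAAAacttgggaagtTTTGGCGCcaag
Mcm6: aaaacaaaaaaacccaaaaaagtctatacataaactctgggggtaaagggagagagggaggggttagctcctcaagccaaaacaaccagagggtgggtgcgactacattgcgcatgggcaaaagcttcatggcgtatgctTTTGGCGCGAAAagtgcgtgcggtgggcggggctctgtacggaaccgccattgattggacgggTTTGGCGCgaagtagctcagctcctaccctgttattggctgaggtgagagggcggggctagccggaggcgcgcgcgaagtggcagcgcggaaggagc
Cdc6: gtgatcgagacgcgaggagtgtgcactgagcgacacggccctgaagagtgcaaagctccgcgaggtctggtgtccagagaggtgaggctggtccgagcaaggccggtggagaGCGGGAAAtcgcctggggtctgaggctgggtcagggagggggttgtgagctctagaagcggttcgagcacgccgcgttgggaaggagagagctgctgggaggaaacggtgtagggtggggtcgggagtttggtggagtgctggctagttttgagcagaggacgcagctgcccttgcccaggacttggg
Rrm2: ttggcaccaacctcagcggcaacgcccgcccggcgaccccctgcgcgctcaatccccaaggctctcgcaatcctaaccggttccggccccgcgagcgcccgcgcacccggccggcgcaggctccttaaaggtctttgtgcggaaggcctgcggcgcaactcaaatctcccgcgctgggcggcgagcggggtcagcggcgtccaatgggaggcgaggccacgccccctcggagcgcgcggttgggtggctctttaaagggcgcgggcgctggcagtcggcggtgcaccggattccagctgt
The Mcm3 window held 2 matches, the Mcm6 window 3, of which 2 overlapped, and the Cdc6 window 1. None of these letters stood in the Rrm2 window. Promoters were at hand for 31 of the 39 members (Tipin, Rfc2, Gins2, Exo1, Usp1, Dscc1, Gmnn and Mcm4 had no entry). Of the 31, 14 (45.2%) held a match, against 16 of 47 (34%) other replication genes and 704 of 27025 genes (2.6%). The word CCAAT stood in 71% of the members' windows, 48.9% of those of the other replication genes and 41.1% of those of all genes. Members with and without an E2F match overlapped in their changes: in erythroid progenitors against stem cells the median log2 fold change was 1.00 with a match (n = 14, 0.46 to 2.83) and 1.73 without (n = 17, 0.63 to 3.13).

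Cells were placed in lineages by how many of a lineage's marker genes had a UMI, and only lineages with 50 or more cells in each mouse entered the tests. The 9 tested lineages were stem cell (2180 cells), multipotent progenitor (3087), lymphoid-primed progenitor (2156), megakaryocyte progenitor (616), erythroid progenitor (3595), neutrophil progenitor (3669), neutrophil (4466), monocyte (1783) and pro-B and pre-B cell (2864). Cells of the stem cell gate held a UMI in 4.74 of 13 stem cell markers on average, against 0.769 of 5 multipotent and 0.347 of 7 lymphoid-primed markers. The gating rule set this contrast, as it asked for at least 4 stem cell markers and no UMI of Flt3, Cd48 or Dntt. Cells of the megakaryocyte and multipotent progenitor gates held a UMI in 3.43 and 3.19 of the 13 stem cell markers. No member was a marker. Depth differed between the gates, with a median of 3040 UMIs per cell in the stem cell gate, 10750 in erythroid progenitors, 2363 in neutrophils and 1640 in pro-B and pre-B cells. Levels below are CPM, the UMIs of a gene scaled to a library of 1000000 UMIs, of the cells of a gate, summed per mouse. Log2 fold changes (log2FC) are edgeR's, which rescales the totals by the TMM method.

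Over all cells of a gate, the summed level of the members was lowest in neutrophils and highest in erythroid progenitors. Within windows of like depth, which held only part of each gate, it was highest in pro-B and pre-B cells. Their summed level was 6502 ± 228 CPM in erythroid progenitors and 982 ± 119 CPM in neutrophils, against 3111 ± 438 CPM in stem cells (SD, n = 6 mice). Pro-B and pre-B cells had 5694 ± 607 CPM, megakaryocyte progenitors 5183 ± 441, neutrophil progenitors 4852 ± 258, multipotent progenitors 4555 ± 340, lymphoid-primed progenitors 4292 ± 304 and monocytes 4146 ± 430. The ratio over the stem cells of the same mouse averaged 2.11 in erythroid progenitors, 1.84 in pro-B and pre-B cells, 1.47 in multipotent progenitors and 0.316 in neutrophils. In each of the 7 gates other than the neutrophil gate the level was above that of stem cells in 6 of 6 mice, and in neutrophils it was below in 6 of 6 (exact two-sided sign-flip test, p = 0.03125 for each gate, the smallest that 6 mice allow). Neighbours in this order, such as lymphoid-primed progenitors and monocytes, overlapped in their range over mice.

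**Figure D1:**
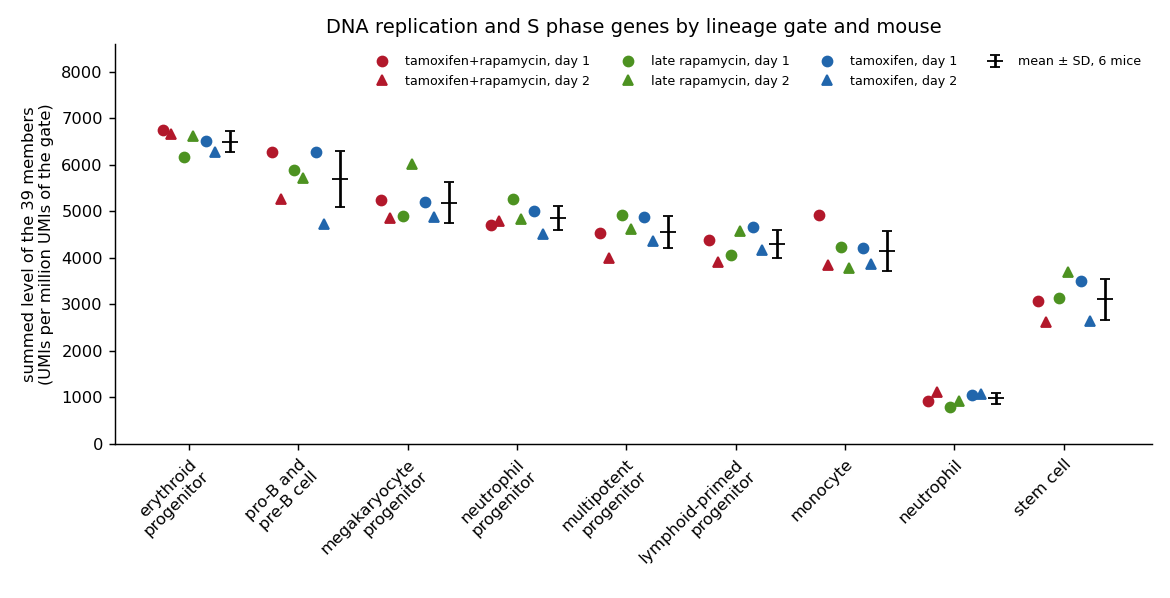
Summed level of the 39 members in CPM (y axis) in each lineage gate (x axis), 1 point per mouse coloured by treatment and shaped by day, beside the mean ± SD of the 6 mice. The 6 mice of the erythroid gate lie between 6170 and 6746 CPM and those of the neutrophil gate between 803 and 1119 CPM, against 2614 to 3687 CPM in the stem cell gate.

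The gates differed in depth, so the levels were also compared within windows of UMIs. When only cells of 3000 to 6000 UMIs were compared, the log2 ratio over stem cells was 0.94 in pro-B and pre-B cells, 0.53 in erythroid progenitors and -0.91 in neutrophils (exact p = 0.03125 for each). The levels in that window were 7488 ± 727 CPM in pro-B and pre-B cells, 5682 ± 877 CPM in erythroid progenitors and 2306 ± 1012 CPM in neutrophils. Stem cells had 4151 ± 1591 CPM there (SD, n = 6 mice). Over all cells the ratios of erythroid progenitors and neutrophils were 1.08 and -1.66. It was 0.42 in megakaryocyte progenitors, 0.27 in neutrophil progenitors, 0.20 in multipotent progenitors, 0.03 in lymphoid-primed progenitors and 0.03 in monocytes, none of which passed the test in that window. With cells near the median UMIs of their own mouse (0.75 to 1.5 times), megakaryocyte, neutrophil and multipotent progenitors passed again (0.54, 0.44 and 0.27), while pro-B and pre-B cells, the highest at 7318 CPM (1.18, exact p = 0.0625), lymphoid-primed progenitors (0.06, exact p = 0.531) and monocytes (0.09, exact p = 0.5) did not. Both windows were added after the data were seen, and they held only part of each gate. At 3000 to 6000 UMIs the fewest cells in a mouse were 14 pro-B and pre-B cells, 41 erythroid progenitors and 71 stem cells. Near the median they were 8, 35 and 58.

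Gene by gene, all 39 members passed the filter on low counts in the fit across the 9 gates and 6 mice. Against stem cells, 39 members were higher and 0 lower in erythroid progenitors (median log2FC 1.56), where 39.7% of the 11741 genes tested were called higher and 41.9% lower. In neutrophil progenitors 38 were higher and 0 lower (median 1.01; 38.6% and 34.3% of all genes), in megakaryocyte progenitors 38 and 0 (median 0.83; 22.9% and 19.5%) and in multipotent progenitors 37 and 0 (median 0.67; 16.8% and 10.5%). In lymphoid-primed progenitors 36 were higher and 0 lower (median 0.62; 19.8% and 15.7% of all genes), in pro-B and pre-B cells 35 and 2 (median 1.04; 34% and 32.2%) and in monocytes 34 and 1 (median 0.75; 39.1% and 30.2%). Neutrophils went the other way, with 7 higher and 28 lower (median -0.53; 37.1% and 45.3% of all genes). Calls are edgeR's quasi-likelihood test at an adjusted p under 0.05 (Benjamini-Hochberg over all genes). The stem cell gate is the common baseline of these 8 comparisons, so they share its cells. Without the TMM rescaling the members' medians fell, to 1.17 in erythroid progenitors, 0.40 in monocytes and -1.77 in neutrophils, and the median of all genes fell to -0.42, -0.25 and -1.43.

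**Figure D2:**
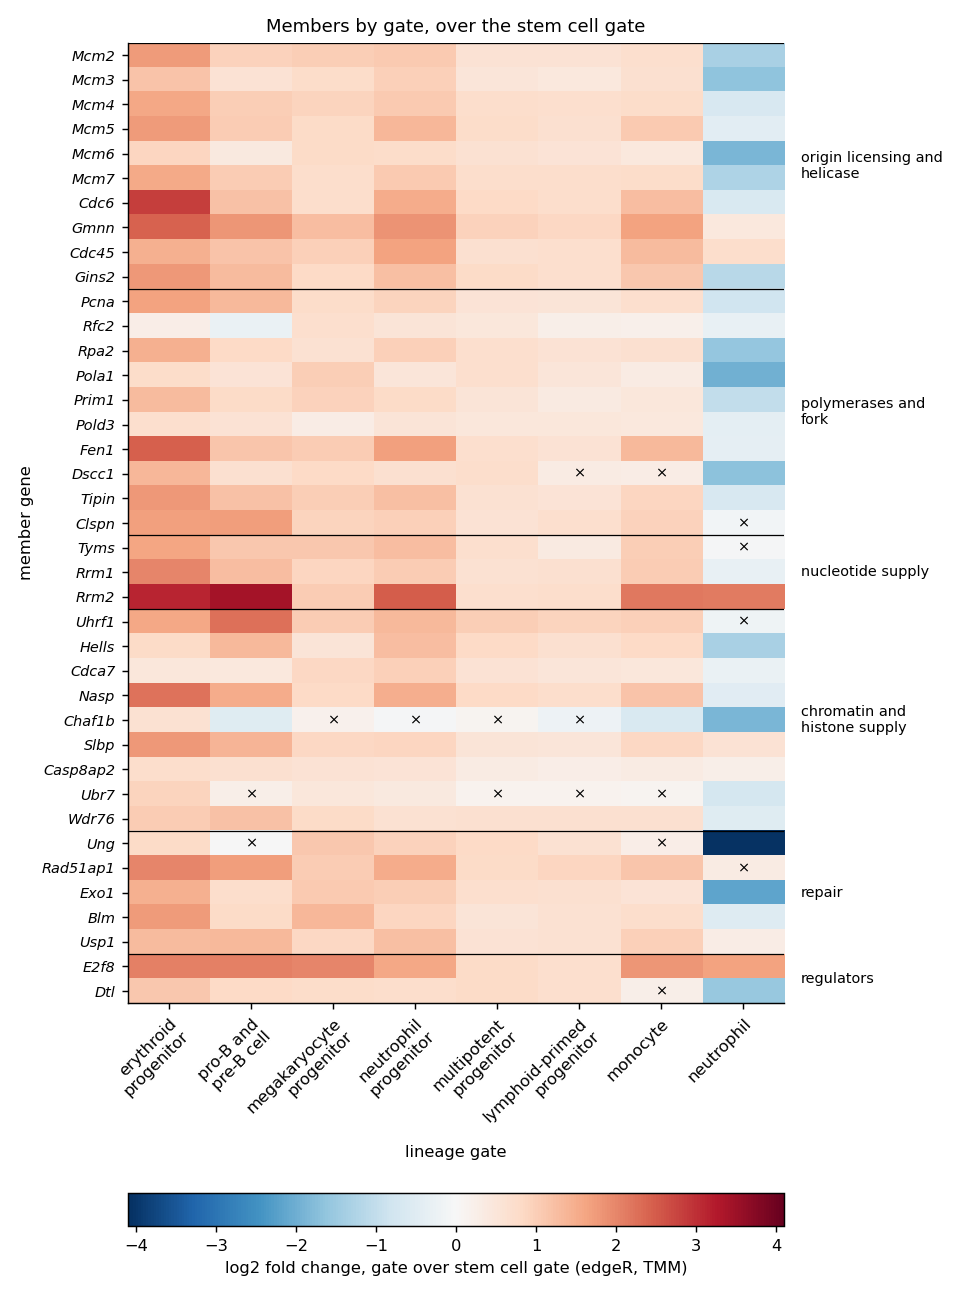
Log2FC over the stem cell gate (colour) of each of the 39 members (rows, grouped by role) in the 8 other gates (columns), with a cross where the member was not called. The erythroid column is above 0 throughout, from 0.29 for Rfc2 to 3.13 for Rrm2, while the neutrophil column runs from -4.04 for Ung to 2.13 for Rrm2.

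Of the licensing and helicase genes, all 10 (Mcm2 to Mcm7, Cdc6, Gmnn, Cdc45 and Gins2) were higher than in stem cells in each of the 7 gates other than neutrophils. Mcm2 had 147.8, 151.2, 148.2, 148.3, 136.1 and 140.2 CPM in the erythroid progenitors of the 6 mice, against 52.9, 40.7, 66.3, 71.6, 63.0 and 48.8 CPM in their stem cells (mice in the order tamoxifen+rapamycin, late rapamycin, tamoxifen, replicates 1 and 2 of each). The ranges over mice did not overlap (log2FC 1.74). Mcm5, a subunit of the same ring, had 156.7 ± 4.81 CPM in erythroid progenitors and 60.3 ± 16.7 CPM in stem cells (log2FC 1.76). Mcm6 had the lowest log2FC of the ring in erythroid progenitors, with 254 ± 9.70 CPM in erythroid progenitors and 182 ± 33.3 CPM in stem cells (log2FC 0.88), and its log2FC over the 7 gates stayed between 0.39 in pro-B and pre-B cells and 0.88. Under plain UMI totals its call was lost in monocytes (log2FC 0.08, adjusted p = 0.471 by edgeR) and in pro-B and pre-B cells (0.17, 0.129).

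Cdc6, the factor that loads the ring, had the widest span of the helicase group. It had 163, 150, 142, 160, 155 and 145 CPM in the erythroid progenitors of the 6 mice, against 23.9, 23.4, 29.5, 33.4, 31.1 and 24.4 CPM in their stem cells. No mouse's stem cells came near the erythroid level (log2FC 2.83). In the other 6 gates its log2FC ran from 0.71 in lymphoid-primed progenitors to 1.54 in neutrophil progenitors. Gmnn, which stops licensing from happening again in the same cycle, was the highest of the group in 6 of the 7 gates, at 1.84 in neutrophil progenitors and 1.80 in pro-B and pre-B cells. Mcm3, Mcm4 and Mcm7 had log2FCs of 1.16, 1.59 and 1.56 in erythroid progenitors and of 0.43, 0.68 and 0.72 in lymphoid-primed progenitors.

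Of the polymerase and fork genes, all 10 were higher in erythroid, neutrophil, megakaryocyte and multipotent progenitors. Pcna, the sliding clamp, had 418 ± 16.7 CPM in erythroid progenitors and 382 ± 34.2 CPM in pro-B and pre-B cells, against 175 ± 27.5 CPM in stem cells (log2FC 1.65 and 1.34). Fen1, the nuclease that trims the flaps of Okazaki fragments, was the highest of the group in erythroid progenitors at 2.45. Clspn, which carries the alarm of a stalled fork to the checkpoint kinase, was the highest in pro-B and pre-B cells at 1.72. Rfc2, a subunit of the clamp loader, departed from the group. It was lower in pro-B and pre-B cells, at 88.6 CPM against 124 CPM in stem cells (log2FC -0.26, adjusted p = 0.0183 by edgeR, higher in 0 of 6 mice). With stricter cell filters this turned to 0.31 and was not called, and the call was also lost with a stricter gate, without the filter on low counts, without tamoxifen+rapamycin replicate 1 (-0.19) and without tamoxifen replicate 1 (-0.13). Its erythroid level of 114 CPM was higher only after TMM rescaling (log2FC 0.29, and -0.11 under plain UMI totals, adjusted p = 0.2), and its calls in lymphoid-primed and neutrophil progenitors and in monocytes were lost under plain totals as well.

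All 3 nucleotide genes were higher in the 7 gates other than neutrophils, and Rrm2 had the highest log2FC of any member. Rrm2, the regulatory subunit of ribonucleotide reductase, had 360, 297, 316, 306, 324 and 270 CPM in the pro-B and pre-B cells of the 6 mice, against 34.0, 27.9, 53.1, 37.2, 43.5 and 20.5 CPM in their stem cells. The ranges were far apart (log2FC 3.42). In erythroid progenitors Rrm2 had 231 ± 16.7 CPM (log2FC 3.13), while in multipotent and lymphoid-primed progenitors its log2FC was 0.70 and 0.72. In neutrophil progenitors it had 154 ± 67.2 CPM, and late rapamycin replicate 1 alone had 291 CPM against 120 to 133 CPM in the other 5 mice. Tyms, which makes thymidylate, had 156 ± 8.33 CPM in erythroid progenitors and 80.4 CPM in lymphoid-primed progenitors, against 66.7 ± 10.6 CPM in stem cells (log2FC 1.62 and 0.37). Its lymphoid-primed call was lost under plain UMI totals (0.27, adjusted p = 0.0686 by edgeR). Rrm1, the catalytic subunit, had a log2FC of 2.00 in erythroid progenitors and 0.62 in multipotent progenitors.

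The chromatin genes differed among themselves. Uhrf1, which keeps DNA methylation through replication, had 254 ± 35.8 CPM in pro-B and pre-B cells, above the 139 ± 10.6 CPM of erythroid progenitors, against 60.2 ± 20.3 CPM in stem cells (log2FC 2.27 and 1.60). Nasp, a histone chaperone, was the highest of the group in erythroid progenitors at 2.23. Cdca7, which works with the remodeller Hells, was the lowest there at 0.46 (110 ± 4.02 CPM against 105 ± 17.4 CPM in stem cells), and was not called under plain UMI totals (0.07, adjusted p = 0.498 by edgeR). Its highest log2FC was 0.98, in neutrophil progenitors. Chaf1b, a subunit of the histone chaperone CAF-1, was lower in monocytes, at 27.8 CPM against 55.4 CPM in stem cells (log2FC -0.64, adjusted p = 9.258e-05, higher in 0 of 6 mice), and in pro-B and pre-B cells (log2FC -0.51). The call in pro-B and pre-B cells was lost with stricter cell filters (-0.10) and without tamoxifen+rapamycin replicate 2 (-0.36). It was higher in erythroid progenitors by 0.63, where plain UMI totals gave 0.24 (adjusted p = 0.0594), and was not called in the other progenitors, although plain totals gave a lower call in neutrophil progenitors (-0.43, adjusted p = 0.0017). Ubr7, a ubiquitin ligase of histones, was called higher in erythroid, megakaryocyte and neutrophil progenitors and not in the other 4 of these gates.

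The repair genes and regulators were higher in most gates. Rad51ap1 led the repair genes in erythroid progenitors (1.99) and in pro-B and pre-B cells (1.72). Ung, which removes uracil from DNA, was not called in monocytes (log2FC 0.29) or in pro-B and pre-B cells (-0.01). E2f8, an E2F family member that represses E2F targets later in S phase, had 95.7 ± 15.1 CPM in erythroid progenitors and 113 CPM in megakaryocyte progenitors, against 29.1 ± 11.1 CPM in stem cells (log2FC 2.08 and 2.00). In stem cells E2f8 varied between mice, with 37.8 and 32.4 CPM under tamoxifen+rapamycin, 14.7 and 37.2 CPM under late rapamycin and 37.3 and 15.4 CPM under tamoxifen. Dtl, which marks Cdt1 for destruction once replication has begun, was higher in 6 of the 7 gates and not called in monocytes (0.24, adjusted p = 0.0567 by edgeR). In all, 33 of the 39 members were higher in each of the 7 gates, and the exceptions were Chaf1b, Dscc1, Dtl, Rfc2, Ubr7 and Ung. Under plain UMI totals 25 of the 39 were. The share of all genes called higher in each of the 7 gates was not counted. It cannot exceed the share called higher in multipotent progenitors, which was 16.8% of the 11741 genes tested. Under plain UMI totals 1283 genes were called higher there.

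In neutrophils the members moved apart from each other. Mcm6 had 16, 31.2, 16.3, 19.2, 27.1 and 21.8 CPM in the neutrophils of the 6 mice, against 185, 130, 196, 215, 211 and 156 CPM in their stem cells, and the ranges were far apart (log2FC -1.87). Ung was counted in 5 UMIs over all 4466 neutrophils, with no UMI in 2 of the 6 mice, against 17.3 CPM in stem cells. Exo1, Pola1 and Chaf1b followed at -2.15, -1.96 and -1.86. Rrm2 was higher, with 58.1, 91.4, 66.4, 58.6, 64.9 and 65.9 CPM in neutrophils and the stem cell levels given above (log2FC 2.13, higher in 6 of 6 mice). E2f8 was higher as well, at 40.2 ± 7.29 CPM against 29.1 ± 11.1 CPM in stem cells (log2FC 1.66, higher in 4 of 6 mice). These were the only members called higher under plain UMI totals (log2FC 0.92 and 0.43), and the other 37 were then called lower. Cdc45, Slbp, Gmnn, Usp1 and Casp8ap2 were called higher relative to the TMM-rescaled totals, at 0.71, 0.58, 0.43, 0.32 and 0.24, and not under plain UMI totals. Scaling by DESeq2 size factors gave 7 members higher and 28 lower, as TMM did. Under plain totals the first 3 of these were at -0.53, -0.63 and -0.78. Tyms (-0.03), Clspn (-0.13), Uhrf1 (-0.18) and Rad51ap1 (0.35) were not called.

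The neutrophil gate was itself mixed. Its 1694 cells with no UMI in a neutrophil progenitor marker had a summed member level of 340 ± 42.1 CPM (SD, n = 6 mice), its 2504 cells with 1 to 3 such markers had 1138 ± 306 CPM and its 268 cells with 4 or more had 2615 ± 545 CPM. Rrm2 was at 7.22, 83.4 and 168 CPM in these bins and E2f8 at 7.61, 47.9 and 105 CPM. The summed level of 22 genes of G2 and M phase was at 226, 2639 and 6248 CPM. The bin of 4 or more was uneven, as 205 of its 268 cells came from late rapamycin replicate 1. The other mice gave it 9 to 15 cells each. Late rapamycin replicate 1 had the lowest summed member level of that bin, 1702 CPM, and E2f8 there ran from 28.6 to 232 CPM over mice. Median UMIs per cell in the bins were 1628, 2707 and 5356, so depth moved with them, and its part in these values was not tested. When the cell filters were stricter, 14 members were called higher and 12 lower in the neutrophil gate. The share of all genes called with these filters is not given here.

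The share of cells with a UMI in at least 3 different members was also highest in erythroid progenitors, but it did not keep the order of the summed levels. Each cell was first thinned to 1000 UMIs, so that the same number was read in each. The share was 87.4% in erythroid progenitors (82.9 to 89.9% over the 6 mice) and 77.2% in neutrophil progenitors (72.8 to 84.5%), against 31.3% in stem cells (24.1 to 39.9%). Megakaryocyte progenitors had 69.3%, multipotent progenitors 52.4% and lymphoid-primed progenitors 50.1%, all above stem cells in 6 of 6 mice (exact two-sided sign-flip test, p = 0.03125). Monocytes had 44.1% and pro-B and pre-B cells 43.3%, above stem cells in 5 of 6 mice (exact p = 0.0625 and 0.09375). Pro-B and pre-B cells thus came second in summed level, but in share they lay below megakaryocyte, neutrophil, multipotent and lymphoid-primed progenitors and monocytes. Among cells of 3000 to 6000 UMIs the thinned share was 53.7% in stem cells (26.0 to 82.4% over the 6 mice). The difference from them no longer passed the test in erythroid (16.6 points, exact p = 0.09375), neutrophil (18.5 points, exact p = 0.125) and multipotent progenitors (5.33 points, exact p = 0.219) or in neutrophils (-22.9 points, exact p = 0.0625). Neutrophils had 5.99%, at a median of 2363 UMIs, and 646 mature B cells had 13%, at a median of 1301 UMIs. Mature B cells mostly rest, but their gate reached 5460 CPM of G2 and M phase genes in 1 mouse, so its share is no clean measure of free RNA. Within the neutrophil gate the share was 0.743% in cells with no neutrophil progenitor marker, 8.51% in cells with 1 to 3 and 33% in cells with 4 or more. In the last of these bins late rapamycin replicate 1, with 205 of the 268 cells, had 19.0% and the other mice 21.4 to 50%. Without thinning the shares were 99.3% in erythroid progenitors, 13.4% in neutrophils and 64.0% in stem cells.

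**Figure D3:**
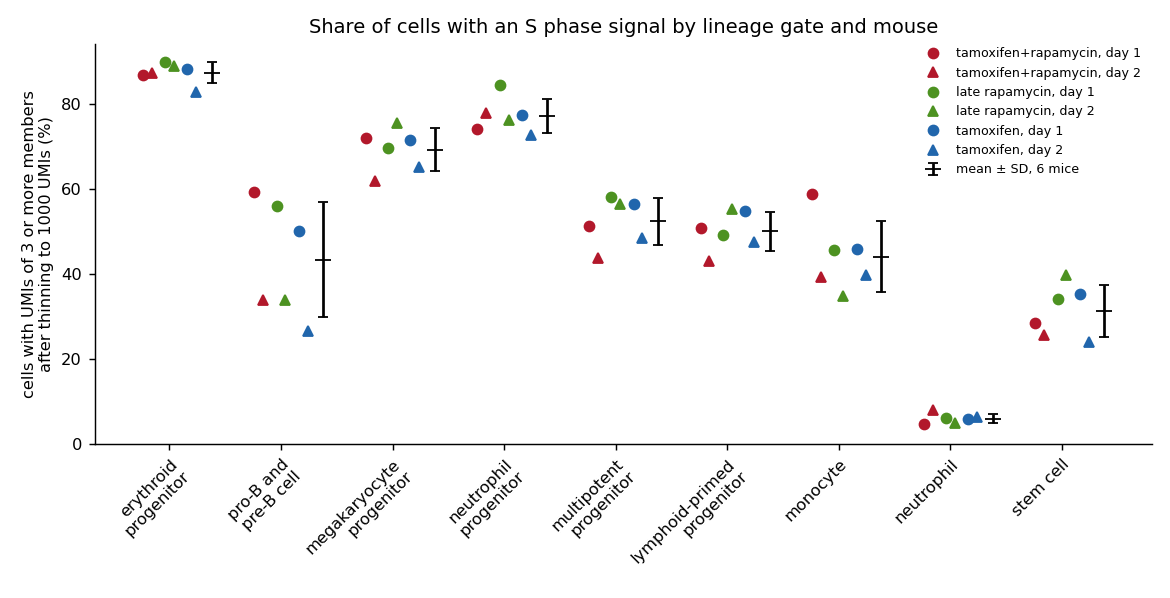
Percent of cells with a UMI in at least 3 members after thinning to 1000 UMIs (y axis) in each gate (x axis), 1 point per mouse coloured by treatment and shaped by day, beside the mean ± SD. Erythroid progenitors lie between 82.9 and 89.9%, stem cells between 24.1 and 39.9%, and pro-B and pre-B cells spread from 26.6 to 59.2%.

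Pro-B and pre-B cells were divided within the gate and by day. On day 1 their share was 59.2% under tamoxifen+rapamycin, 56.1% under late rapamycin (82 cells) and 50.1% under tamoxifen, and on day 2 it was 33.9%, 34% and 26.6%, so every day 1 mouse was above every day 2 mouse. Depth split the same way. Median UMIs per cell before thinning were, in the same order, 2185, 1890 and 1699 on day 1 and 1538, 1669 and 1369.5 on day 2. The part of depth in this split was not tested. Of their thinned cells 27.3% had no member at all and 27.7% had 6 or more, while in stem cells 24.5% had none and 12.1% had 6 or more (means of 6 mice). In erythroid progenitors 1.41% had none and 50.5% had 6 or more. Among cells of 3000 to 6000 UMIs the share in pro-B and pre-B cells was 29.2 points above that of stem cells (exact p = 0.03125), and the difference in lymphoid-primed progenitors was -1.54 points (exact p = 0.688).

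Within the stem cell gate, the cells with at least 3 members also had more of the rest of the replication machinery. Levels in these comparisons are CPM of the thinned cells. The 685 cells with the signal had 4864 ± 396 CPM of 58 other replication genes, against 1648 ± 146 CPM in the 1495 cells without it, and 2312 ± 401 CPM of the 22 G2 and M phase genes, against 671 ± 248 CPM (higher in 6 of 6 mice, exact p = 0.03125 for both; SD, n = 6). Mki67, a marker of cycling cells, had 469 ± 124 CPM with the signal and 94.7 ± 31.7 CPM without it. The stem cell markers were lower, at 3223 ± 331 CPM with the signal and 4848 ± 281 CPM without it, in 6 of 6 mice. The gate itself asks for a UMI in at least 4 of these 13 markers before thinning. A deeper cell can thus enter it with a lower marker level. Depth went with the signal, whose share was 53.7% among stem cells of 3000 to 6000 UMIs and 31.3% over all of them. The part of the gate and of depth in the marker values was not tested. Hlf, a transcription factor of stem cells, had 740 ± 207 CPM with the signal and 1221 ± 238 CPM without it. Mecom and Mllt3, other such regulators, had 1309 and 472 CPM with the signal against 1728 and 838 CPM without it. Procr, Fgd5, Adgrg1 and Ly6a were lower in 6 of 6 mice as well. The other 6 of the 13 markers did not pass: Slamf1 (31.4 CPM with the signal and 27.9 CPM without it), Ctnnal1 (37.5 and 26.4 CPM), Vwf (21.4 and 31.6 CPM), Robo4 (20.03 and 32.5 CPM), Esam (38.6 and 56.7 CPM) and Hoxb5 (4.18 and 13.3 CPM). In multipotent progenitors the stem cell markers were also lower with the signal (1688 against 2286 CPM, 6 of 6 mice).

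The G2 and M phase genes did not follow the members in every gate. In multipotent progenitors they were 2377 CPM in cells with the signal and 1280 CPM in cells without it. In neutrophil progenitors they were 2880 ± 272 CPM in cells with the signal, below the 4571 ± 836 CPM of cells without it, in 6 of 6 mice (exact p = 0.03125). In erythroid progenitors (4929 and 4530 CPM) and megakaryocyte progenitors (3007 and 3481 CPM) the test was not passed. The 58 other replication genes were higher with the signal in all 9 gates, by 1.55 times in neutrophil progenitors to 7.03 times in neutrophils.

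**Figure D4:**
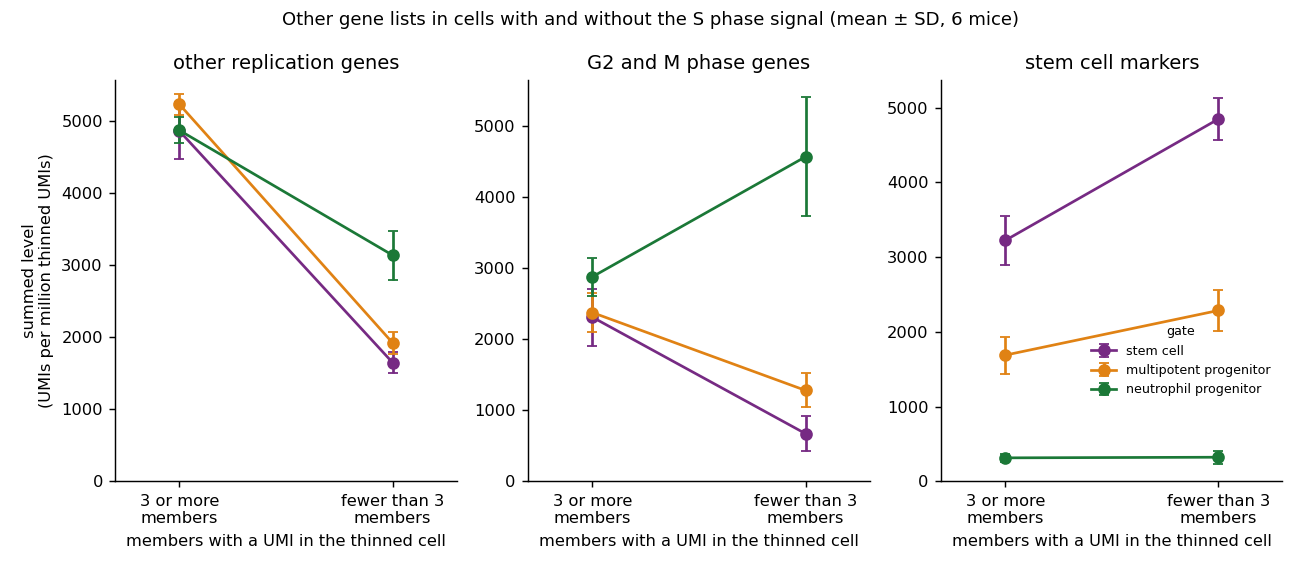
Summed CPM of other replication genes, of G2 and M phase genes and of stem cell markers (y axes) in cells with a UMI in 3 or more members and in cells with fewer (x axes), for 3 gates, as means of 6 mice with SD bars. In the stem cell gate the G2 and M phase genes are at 2312 with the signal and 671 without it, and in neutrophil progenitors at 2880 and 4571.

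Over whole gates, 53 of the 58 other replication genes were higher than in stem cells and 1 lower in erythroid progenitors (median log2FC 1.38), and 9 were higher and 32 lower in neutrophils (-0.55). The counts in the remaining gates were 52 and 1 in neutrophil progenitors, 49 and 1 in pro-B and pre-B cells, 48 and 0 in megakaryocyte progenitors, 47 and 4 in monocytes, 42 and 0 in multipotent progenitors and 39 and 0 in lymphoid-primed progenitors. All 22 G2 and M phase genes were higher in 7 of the 8 gates, neutrophils among them (median log2FC 1.57), and 20 were higher in multipotent progenitors. In summed CPM the G2 and M phase genes were higher in neutrophils in 5 of 6 mice (exact p = 0.0625).

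Between treatments, no member was called in any gate. All 39 members passed the low-count filter in 8 gates and 35 did in neutrophils, where Dscc1, Exo1, Gins2 and Ung did not. The 3 comparisons in 9 gates gave 1041 member tests, of which 0 passed an adjusted p under 0.05 and 87 had an unadjusted p under 0.05 (edgeR, quasi-likelihood test with day as a block). That is 8.36% of the member tests, and 7.98% of the tests of all genes had such a p. DESeq2 called 0 as well, with 3 at an unadjusted p under 0.05. The background was low too. In the stem cell gate 0.143% of all genes were called for tamoxifen+rapamycin over tamoxifen, 0.552% for late rapamycin over tamoxifen and 0.381% for tamoxifen+rapamycin over late rapamycin. In the same order it was 0.036%, 0.306% and 0.603% in multipotent progenitors, 0.0578%, 0.173% and 0.299% in lymphoid-primed progenitors, and 0.184%, 1.14% and 0.539% in megakaryocyte progenitors. It was 0.898%, 1.92% and 0.571% in erythroid progenitors, 0%, 0.00908% and 0.00908% in neutrophil progenitors and 0%, 0.0252% and 0% in neutrophils. It was 0.0207%, 0.0104% and 0.0415% in monocytes, and 0.622%, 0.204% and 0.332% in pro-B and pre-B cells. With 2 mice per treatment the fit had 2 residual degrees of freedom, and an exact permutation of single values cannot go below p = 0.333.

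In stem cells most members' log2FCs lay below 0 for tamoxifen+rapamycin against late rapamycin, although none passed the threshold. The 39 members were measured in the same mice, so counts of members above or below 0 are not independent results. The summed level was 3068 and 2614 CPM under tamoxifen+rapamycin, 3140 and 3687 CPM under late rapamycin and 3511 and 2644 CPM under tamoxifen. The late rapamycin values were above both tamoxifen+rapamycin values, and the tamoxifen values overlapped with both. Tamoxifen+rapamycin over late rapamycin gave 35 of 39 members below 0 (median log2FC -0.33, 17 with an unadjusted p under 0.05, beside 10.1% of all genes, 0 called), and the median difference of log2 CPM within a day was -0.03 on day 1 and -0.50 on day 2. Usp1, which removes ubiquitin from Pcna and Fancd2, had 136 and 92.8 CPM under tamoxifen+rapamycin, against 165 and 163 CPM under late rapamycin (log2FC -0.59, adjusted p = 0.0726 by edgeR). Uhrf1 had 41.5 and 39.2 CPM under tamoxifen+rapamycin, against 66.3 and 72.7 CPM under late rapamycin (log2FC -0.84, adjusted p = 0.129). Hells, the remodeller that Cdca7 works with, had 89.4 and 60.4 CPM under tamoxifen+rapamycin, against 89.9 and 134 CPM under late rapamycin (-0.73, adjusted p = 0.139). Nasp had 104 and 81.5 CPM under tamoxifen+rapamycin, against 121 and 142 CPM under late rapamycin (-0.58, adjusted p = 0.141). For Usp1, Uhrf1 and Nasp the values of these treatments did not overlap, and for Hells they differed on day 2 only. These members were named for their small p, and the share of all genes with values apart was not counted. With 2 mice per treatment, an exact permutation test of such a split cannot go below p = 0.333.

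The median stayed below 0 whichever mouse was left out (-0.53 to -0.06), while the calls depended on single mice. Without late rapamycin replicate 1, some members were called lower in stem cells under tamoxifen+rapamycin than under late rapamycin. Without late rapamycin replicate 2 this was not so, and E2f8 was called higher. Without tamoxifen replicate 1 or replicate 2, Usp1, Uhrf1, Hells and Nasp were called lower, and without the filter on low counts these 4 were called as well. The fits without 1 mouse have 1 residual degree of freedom and leave 1 mouse in a treatment. The share of all genes called in them, or without the filter, is not given here. These calls are therefore not read as a result about the members. Over the 9 gates, member calls also appeared when either late rapamycin mouse was left out.

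Late rapamycin over tamoxifen gave 36 of 39 members above 0 in stem cells (median 0.25, 12 with an unadjusted p under 0.05, beside 8.76% of all genes, 0 called). The median difference of log2 CPM within a day was -0.14 on day 1 and 0.53 on day 2, so the days differed in sign. Rrm2 in stem cells had 53.1 and 37.2 CPM under late rapamycin, against 43.5 and 20.5 CPM under tamoxifen (log2FC 0.56, adjusted p = 0.466). Mcm2, Mcm4 and Mcm6 were at 0.37, 0.37 and 0.23, Mcm3 and Mcm7 at 0.04 and 0.06, Mcm5 at 0.28, Pcna at -0.01, Cdc6 at 0.25, Cdca7 at 0.15, Uhrf1 at 0.10 and E2f8 at 0.30. The smallest unadjusted p values over the gates fell on Tyms in pro-B and pre-B cells, with 178 and 134 CPM under late rapamycin against 92.8 and 102 CPM under tamoxifen (log2FC 0.58, adjusted p = 0.347), and in megakaryocyte progenitors, with 148 and 171 CPM against 121 and 104 CPM (0.57, adjusted p = 0.152). Nasp in stem cells (0.46) and Dscc1 in megakaryocyte progenitors (1.13) came next, and neither was called.

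Tamoxifen+rapamycin over tamoxifen, which compares rapamycin in the newborn with its absence, gave 26 of 39 members below 0 in stem cells (median -0.10) and 36 of 39 below 0 in multipotent progenitors (median -0.10), with 0 called. In multipotent progenitors 28 of the 39 were below 0 on both days. Gmnn there had 82.3 and 74.1 CPM under tamoxifen+rapamycin, against 106 and 101 CPM under tamoxifen (log2FC -0.41, adjusted p = 0.45 by edgeR). Slbp, which binds histone messenger RNA, had 106 and 109 CPM under tamoxifen+rapamycin, against 142 and 130 CPM under tamoxifen (-0.34, adjusted p = 0.562). Neither pair of values overlapped, and the share of all genes of which this held was not counted. Uhrf1 in stem cells had 41.5 and 39.2 CPM under tamoxifen+rapamycin, against 91.4 and 50.1 CPM under tamoxifen (-0.74, adjusted p = 0.468), and Rfc2 in lymphoid-primed progenitors had 107 and 122 CPM against 154 and 152 CPM (-0.41, adjusted p = 0.717). In stem cells Mcm2 to Mcm7 lay between -0.34 and -0.09, Pcna at -0.20, Rrm2 at 0.04, Tyms at 0.15, Cdc6 at -0.20, Cdca7 at -0.27 and E2f8 at 0.48. The share of stem cells with at least 3 members was 28.4 and 25.8% under tamoxifen+rapamycin, 34.2 and 39.9% under late rapamycin and 35.4 and 24.1% under tamoxifen (tamoxifen+rapamycin against tamoxifen, exact permutation p = 1).

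In the other gates the members' medians between treatments stayed between -0.21 and 0.21. Erythroid progenitors had summed levels of 6746 and 6672 CPM under tamoxifen+rapamycin, 6170 and 6626 CPM under late rapamycin and 6512 and 6285 CPM under tamoxifen. Neutrophils had 932 and 1119 CPM under tamoxifen+rapamycin, 803 and 914 CPM under late rapamycin and 1059 and 1066 CPM under tamoxifen, and the late rapamycin values lay below all others (exact permutation p = 0.333 against either). The comparisons share mice, so their values are not independent of each other. Of the 58 other replication genes and the 22 G2 and M phase genes, only Mki67 and Top2a, a topoisomerase of chromosomes, were called in stem cells. Both were higher under late rapamycin than under tamoxifen (log2FC 0.58 and 0.59, adjusted p = 0.00937 and 0.00494 by edgeR). Mki67 was also higher under tamoxifen+rapamycin than under tamoxifen (0.55, adjusted p = 0.0371). These comparisons share the tamoxifen mice, and 0.552% and 0.143% of all genes were called in them. How these calls held under other settings is not given here. The members' medians in those comparisons were 0.25 and -0.10. Ccnb1, the cyclin that takes cells into mitosis, was called higher in pro-B and pre-B cells under tamoxifen+rapamycin than under tamoxifen (0.59, adjusted p = 0.0423). Tk1, a thymidine kinase, was called lower in erythroid progenitors under late rapamycin than under tamoxifen (-0.31, adjusted p = 0.0439). That call was lost with doublets kept, a stricter gate, plain UMI totals, no replicate block or DESeq2, and without tamoxifen replicate 1.

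**Figure D5:**
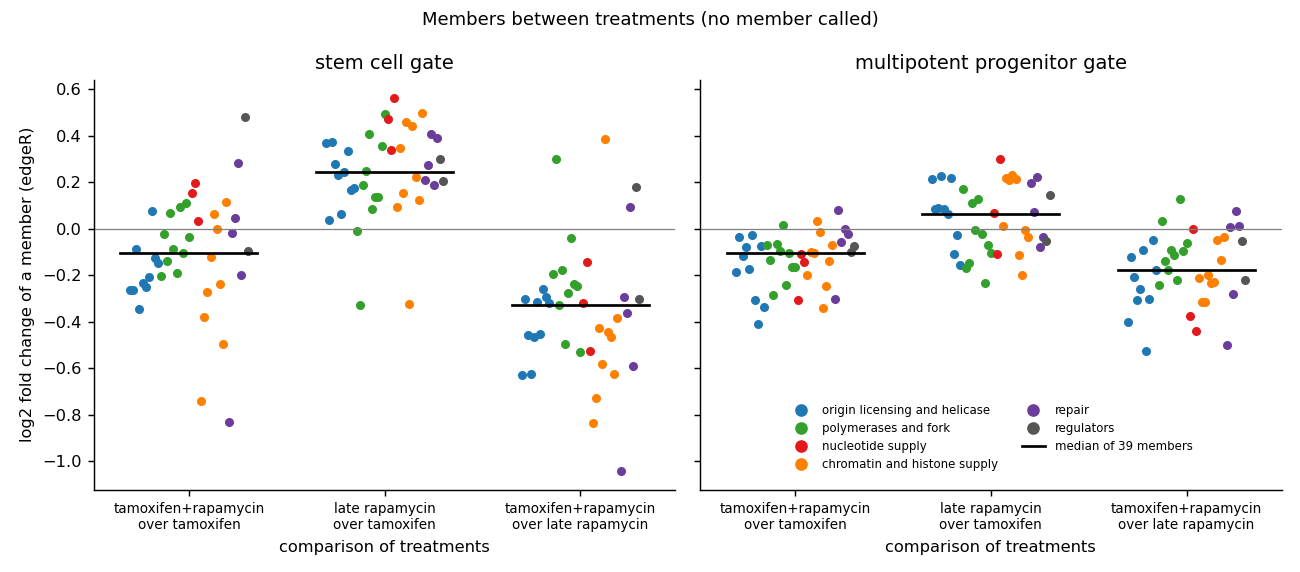
Log2FC (y axis) of each of the 39 members, coloured by role, for the 3 comparisons of treatments (x axis) in the stem cell gate (left) and the multipotent progenitor gate (right), with a line at the median. No member was called, and the stem cell medians are -0.10, 0.25 and -0.33.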

How the data were processed

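The values are deposited UMI counts per gene and cell from droplet single-cell libraries (1 matrix per day, 25058 and 21409 barcodes) together with the authors' hashtag counts. Reads were counted with Cell Ranger 7.0.0 on mm10 per the submitters' processing notes, but with version 8.0.1 per the file headers. Whether intronic reads were counted is not given in the sources used here. The labels give an age of 6 weeks, and the design text also speaks of isolation after 2 weeks.

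Cells with exactly 1 hashtag were used (21862 and 18881; several 3007 and 2365, none 189 and 163), above the 0.999 quantile of background, with at least 500 genes, 1000 UMIs and at most 10% mitochondrial UMIs. The expected same-mouse doublets (1473 and 1154) were removed by their share of known multiplets among 50 neighbours, leaving 34428 cells. A cell entered a committed gate when it had UMIs in at least 4 markers of that lineage (3 for short lists) and in more of them than of any other; markers seen in over 45% of cells were not used. Of the rest, stem cells had at least 4 stem cell markers and no UMI of Flt3, Cd48 or Dntt, multipotent progenitors had Flt3 without Dntt, and lymphoid-primed progenitors had Dntt (at least 3 markers each). Tied cells (840) and cells of no lineage (8047) were left out. This gating rule was chosen after the data were seen. Members and lists were chosen with earlier results of these data known.

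Counts were summed per mouse and gate and tested with edgeR 4.0.16 (quasi-likelihood, TMM, filterByExpr, R 4.3.3), with the mouse as a block between gates and the day as a block between treatments. The day pairs the mice of a replicate number because the labels give 1 mouse of each treatment per day. DESeq2 1.42.0 was an alternative. The genes named were Mcm2 to Mcm7, Pcna, Rrm2, Tyms, Cdc6, Cdca7, Uhrf1 and E2f8, then the members called in a contrast (the 5 largest and 5 smallest log2 fold changes where more than 10 passed), or the 4 with the smallest p where fewer than 4 passed; other members are named as examples of their role. Single values were compared by exact two-sided tests over mice, with scipy 1.17.1. Scripts were tested on simulated data. Shares are over cells, and their precision is set by counting error within a mouse and by the spread over mice. P-values of edgeR between treatments rest on the spread of the 6 mice of a gate that is left after treatment and day (2 residual degrees of freedom). That estimate of the spread also draws on the other genes. The exact tests between treatments compare 2 mice with 2 mice.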

Additional observations from a re-analysis of the deposited data

Results flagged for a closer look

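In 4 pairs of gates both mice pairs of a treatment comparison moved one way in stem cells and the other way in a second gate. None of these differences was tested, and each rests on 2 mice per treatment. For tamoxifen+rapamycin over late rapamycin, the log2 difference of the summed member level in stem cells was -0.03 on day 1 and -0.50 on day 2. In erythroid progenitors it was 0.13 and 0.01, so stem cells minus erythroid progenitors came to -0.33. In neutrophils it was 0.21 and 0.29 (stem cells minus neutrophils, -0.52), and in monocytes 0.22 and 0.02 (stem cells minus monocytes, -0.39). For tamoxifen+rapamycin over tamoxifen it was -0.19 and -0.02 in stem cells and 0.05 and 0.09 in erythroid progenitors, a difference of -0.17.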

How the results depend on the processing

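Between lineages, leaving out 1 mouse gave 23 to 28 members lower and 6 to 8 higher in neutrophils, 1 to 2 lower in pro-B and pre-B cells, 1 to 1 lower in monocytes and 39 to 39 higher in erythroid progenitors; for the other replication genes it gave 2 to 4 lower in monocytes and 0 to 1 lower in pro-B and pre-B cells. The neutrophil counts moved most: members called higher were 14 with stricter cell filters, 3 with a stricter gate and 2 under plain UMI totals, and members called lower were 12 with stricter cell filters. The share of all genes called with stricter cell filters or a stricter gate is not given here. Members lower in pro-B and pre-B cells were 0 with stricter cell filters, 1 with a stricter gate and 1 without a low-count filter, and 1 member was lower in neutrophil progenitors under plain UMI totals and under DESeq2. Of the other replication genes, those higher in neutrophils were 23 (stricter cell filters), 5 (stricter gate) and 2 (plain totals), and those lower were 16 (stricter cell filters) and 53 (plain totals). Those lower elsewhere were, under plain totals, 5 in erythroid progenitors, 4 in neutrophil progenitors, 7 in monocytes, 4 in pro-B and pre-B cells and 1 in lymphoid-primed progenitors; with stricter cell filters, 0, 2 and 0 in erythroid progenitors, monocytes and pro-B and pre-B cells; with a stricter gate, 3 in neutrophil progenitors and 1 in lymphoid-primed progenitors; with DESeq2 size factors, 3 in neutrophil progenitors, 3 in pro-B and pre-B cells and 1 in lymphoid-primed progenitors; and with DESeq2, 3 and 3 in neutrophil progenitors and in pro-B and pre-B cells.

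Single members reversed in neutrophils: with stricter cell filters Cdc6 (0.072), Cdca7 (0.55), Mcm4 (0.12), Mcm5 (0.67), Tyms (0.87) and Uhrf1 (0.71), and under plain totals Cdc45 (-0.53), Gmnn (-0.78) and Slbp (-0.63). Tyms there was also above 0 with doublets kept (0.026), and without 1 mouse Tyms ran from -0.086 to 0.083 and Uhrf1 from -0.44 to 0.031, both above 0 without late rapamycin replicate 2. Under plain totals Rfc2 was at -0.11 in erythroid progenitors and -0.13 in monocytes, Casp8ap2 at -0.0074 and Pola1 at -0.0017 in monocytes, and Rfc2 in pro-B and pre-B cells was at 0.31 with stricter cell filters. The share of all calls that were higher was 61.5% after TMM and 42.4% under plain totals in multipotent progenitors, 55.8 and 39.9% in lymphoid-primed progenitors, 54 and 41.0% in megakaryocyte progenitors, 56.4 and 35.3% in monocytes, 53.0 and 32.3% in neutrophil progenitors, 51.4 and 37.0% in pro-B and pre-B cells, 48.7 and 34.8% in erythroid progenitors and 45 and 18.0% in neutrophils.

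The summed log2 ratio over stem cells missed the test among cells of 3000 to 6000 UMIs in multipotent (0.20), lymphoid-primed (0.025), megakaryocyte (0.42) and neutrophil progenitors (0.27) and in monocytes (0.030), near the mouse's median UMIs in lymphoid-primed progenitors (0.062), monocytes (0.089) and pro-B and pre-B cells (1.18), and with a stricter gate in monocytes (0.41). The share of cells with the signal, in points over stem cells, missed it at 3000 to 6000 UMIs in multipotent (5.33), lymphoid-primed (-1.54), erythroid (16.6) and neutrophil progenitors (18.5), neutrophils (-22.9) and monocytes (-0.84), and near the median in lymphoid-primed progenitors (2.37). It passed in monocytes with stricter cell filters (23.4) and in pro-B and pre-B cells with stricter cell filters (46.6), thinned to 500 UMIs (14.2) and at 3000 to 6000 UMIs (29.2). Without thinning it was -0.34 in monocytes and -13.1 in pro-B and pre-B cells.

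Between treatments, member calls without 1 mouse ran from 0 to 3 for tamoxifen+rapamycin over tamoxifen, from 0 to 28 for late rapamycin over tamoxifen and from 1 to 35 for tamoxifen+rapamycin over late rapamycin, and those of the other replication genes from 0 to 2, 0 to 40 and 0 to 43. Without a low-count filter the calls were 1 and 5 for the members in the comparisons with late rapamycin and 6 and 8 for the other genes. The share of all genes called without that filter is not given here either. Tk1, the 1 call among the other genes, was lost (0 calls) with doublets kept, a stricter gate, plain totals, DESeq2 and no replicate block. The stem cell median without 1 mouse ran from -0.34 to 0.11 for tamoxifen+rapamycin over tamoxifen, from -0.11 to 0.52 for late rapamycin over tamoxifen and from -0.53 to -0.06 for tamoxifen+rapamycin over late rapamycin; with the label numbers as hashtag numbers the first was 0.10. The share of stem cells with the signal differed by -8.27 to 3.00 points without 1 mouse for tamoxifen+rapamycin minus tamoxifen (-8.30 with stricter cell filters) and by 1.68 to 13 points for late rapamycin minus tamoxifen (-0.80 with stricter cell filters). Without the replicate block 0 members were called, as with it. The cause of these shifts was not tested. Depth limits single-cell values most where cells are shallow, with medians of 1640 UMIs in pro-B and pre-B cells, 2363 in neutrophils and 3040 in stem cells.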
